A study of Mus musculus with 8 samples.

Results

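The genes described here belong to 6 families of splicing factors and RNA binding proteins, chosen by symbol alone: the Srsf, Hnrnp, Snrp, Sf3a and Sf3b, Prpf and numbered Rbm genes. The rule found 95 genes, all of them listed in both tables of the series, which hold 11554 genes for crypts and 12701 genes for villi. There were 10 Srsf, 20 Hnrnp, 11 Snrp, 9 Sf3, 13 Prpf and 32 Rbm genes. Snrnp genes do not match the symbol rule and were counted with the other spliceosome genes.

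RNA was taken from small intestinal crypts and villi of C57BL/6 mice 1 month after tamoxifen. The Ctrl mice are given in the sample labels as Gli1-CreERT2; Rosa26-tdTomato and in the study's legend as Ptgs1 and Ptgs2 floxed mice without Cre. The Gli1-Ptgs cKO mice (cKO) lost both floxed genes in Gli1-expressing mesenchymal cells, whereas the RNA came from epithelial preparations. Each tissue had 2 libraries per genotype by the labels, but the 2 Ctrl villus columns were identical in every value and were counted as 1 library. Villi therefore had 1 Ctrl and 2 cKO libraries, and no villus difference was tested.

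Splicing removes introns from pre-mRNA on the spliceosome, which is built from small nuclear RNAs and proteins. The Snrp genes encode the Sm ring and other proteins of these particles. The Sf3a and Sf3b proteins form the U2 subcomplex that binds the branch point, and the Prpf proteins act mostly in the tri-snRNP and in the activation of the spliceosome. SR proteins (Srsf) bind exonic enhancers and promote exon recognition, and hnRNP proteins coat nascent RNA and often oppose it. Rbm genes share only an RNA recognition domain and hold splicing regulators beside proteins of other functions. Many SR and hnRNP genes limit their own amounts by splicing in exons that send the transcript to nonsense-mediated decay.

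Promoter sequence from RefSeq was at hand for 80 of the 95 genes, with 105 start sites, and 6 motifs were searched on both strands of the 250 bases before each start. The motifs and the sequences printed were chosen after the expression values were seen. The ETS core, CCGGAAG, was in 7 of 8 Sf3 start sites (87.5%), which belong to 6 of 7 Sf3 genes, and in 6.91% of all 32851 start sites. It was also in 46.2% of Srsf start sites and in 11.1% of Hnrnp start sites. The GC box, GGGCGG, was in 12 of 13 Srsf start sites (92.3%) and in 32.7% of all. Its share over the 6 families was 54.3%, with Rbm lowest at 33.3%. CCAAT was in 17 of 27 Hnrnp start sites (63%) and in 33.8% of all. Its share over the 6 families was 44.8%, with Srsf and Snrp lowest at 23.1% each. None of the motifs contains another. TATAAA was in 10.5% of the start sites of these genes against 12.4% of all, CACGTG in 10.5% against 6.02%, and TGACGTCA in 1.9% against 1.55%. These are matches of letters in this window only.

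The Sf3 matches are shown because their share lay furthest above that of all start sites. Capitals mark the ETS core on either strand, each line runs 5′ to 3′ on the gene's strand with up to 10 bases on each side, and positions are those of GRCm38.p6. Sf3b6 held a second match that is not shown, and Sf3b1 held none.
Sf3a1 at chr11:4160337-4160353, plus strand: gagggcgggaCCGGAAG
Sf3a2 at chr10:80798649-80798675, plus strand: gcctttgctcCCGGAAGggatcgcttc
Sf3a3 at chr4:124714761-124714787, plus strand: ccccaagacaCTTCCGGgacacgcgga
Sf3b2 at chr19:5295458-5295478, minus strand: gattacgcaaCCGGAAGtttc
Sf3b3 at chr8:110847016-110847042, minus strand: ccggtgggcgCTTCCGGgcttgcgagg
Sf3b6 at chr12:4817528-4817554, plus strand: ggtccgcaatCCGGAAGcgttctggag

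The upstream sequences of the Prpf and Rbm genes with the largest villus difference in their families are shown for reference, without the last 15 bases before the start. In Prpf39 the capitals mark a GC box that begins 67 bases and a CACGTG that begins 43 bases before the start, and in Rbm26 a CCAAT on the opposite strand that begins 112 bases before it.
Prpf39 at chr12:65036084-65036318, plus strand: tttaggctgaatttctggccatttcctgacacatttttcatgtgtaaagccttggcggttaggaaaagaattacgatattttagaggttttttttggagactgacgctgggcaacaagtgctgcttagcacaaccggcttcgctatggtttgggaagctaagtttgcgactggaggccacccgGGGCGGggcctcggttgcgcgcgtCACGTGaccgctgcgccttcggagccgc
Rbm26 at chr14:105177330-105177564, minus strand: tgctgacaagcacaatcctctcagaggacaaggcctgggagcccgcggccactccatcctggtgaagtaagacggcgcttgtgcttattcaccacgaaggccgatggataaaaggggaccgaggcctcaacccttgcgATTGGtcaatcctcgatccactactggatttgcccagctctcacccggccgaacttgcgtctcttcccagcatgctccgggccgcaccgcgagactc

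Depth, as reads summed over the genes of each table, was 16853017 to 21121714 per crypt library and 13477600 to 15751024 per villus library. Ptgs1, the deleted gene that is listed, was at 365.5 and 163.8 normalized counts in Ctrl crypts and at 178.4 and 198.9 in cKO crypts, so its groups overlapped, and it checks little in RNA that is mostly epithelial. It was at 90.4 in the Ctrl villus library and at 50.5 and 92.7 in cKO villi, while Ptgs2 was not listed. The 7 crypt stem cell markers summed to 4813 to 5526 CPM (reads scaled to a common total over the genes listed) in crypts and to 163 in Ctrl and 391 and 284 in cKO villi, so the labelled compartments differed as named. Between cKO crypts the median gene differed by 0.50 on the log2 scale, against 0.19 between Ctrl crypts and 0.19 between cKO villi, and cKO crypt replicate 1 is the library that stood apart. In bulk RNA, fewer cells of a type and less RNA per cell cannot be told apart.

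Transcripts of these families took a larger share of the reads in crypts than in villi. Over the 11227 genes in both tables, the 95 genes summed to 16211 and 14211 CPM in Ctrl crypts and to 15053 and 13747 CPM in cKO crypts. In villi they summed to 3939 CPM in the Ctrl library and to 6876 and 6168 CPM in the cKO libraries. Under scaling by library size alone, as in CPM, the median log2 difference of all genes between cKO and Ctrl villi was 0.42. Both Ctrl crypts lay above the Ctrl villus library for 90 of the 95 genes (94.7%), against 73.6% of all genes. With the cKO libraries included, the lowest crypt lay above the highest villus library for 78 genes (82.1%), against 52.3% of all genes. No test of crypts against villi was run, since villi had a single Ctrl library and the tables were normalized separately.

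The families differed in the size of this gap. The median log2 difference of Ctrl crypts from the Ctrl villus library, in CPM, was 2.44 for Srsf, 2.12 for Prpf, 2.03 for Hnrnp, 1.70 for Rbm and 1.11 for Sf3 genes, beside 1.06 for all genes. It was 0.42 for Snrp genes, the lowest of the 6 families and under the median of all genes. Snrp genes summed to 707 and 577 CPM in Ctrl crypts and to 440 CPM in the Ctrl villus library, whereas Srsf genes summed to 2811 and 2143 CPM against 444 CPM. In cKO villi Srsf genes summed to 977 and 803 CPM and Snrp genes to 349 and 345 CPM. These gaps rest on 1 Ctrl villus library and were not corrected for transcript length, and Snrp is the family with the shortest transcripts.

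**Figure D1:**
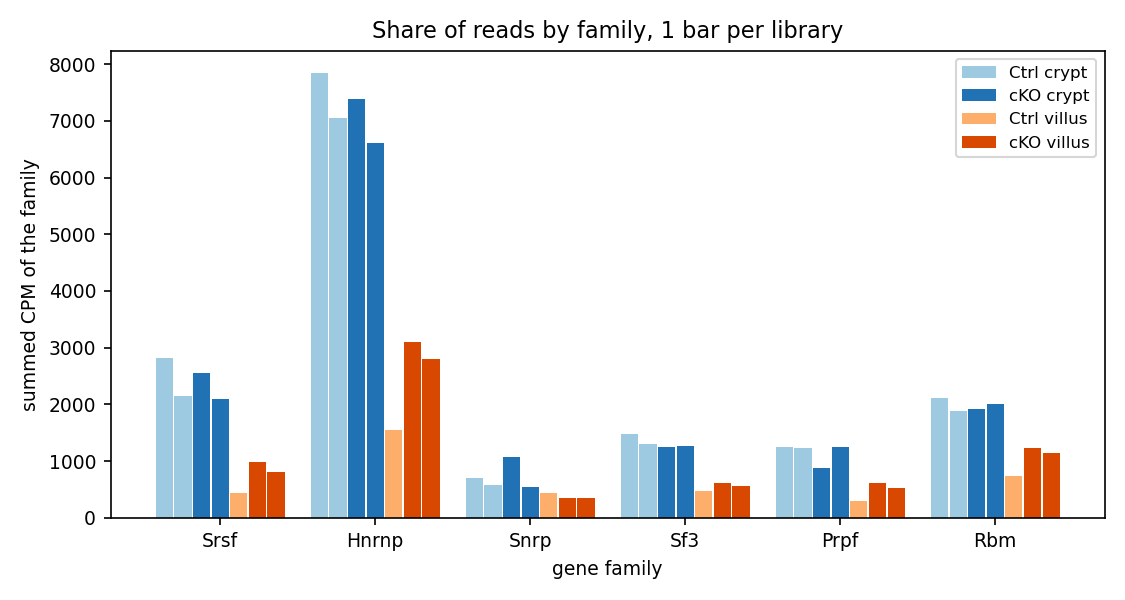
Summed CPM (reads scaled to a common total over genes in both tables) of each family on the vertical axis, with 1 bar per library and the families along the horizontal axis. Hnrnp genes took the most reads in every library, and Snrp was the family whose cKO villus bars (349 and 345 CPM) were below the Ctrl villus bar (440 CPM).

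Per kilobase of the longest annotated transcript, the highest crypt level of all 95 genes was that of Hnrnpa2b1, an hnRNP of the A/B group, at 5982 normalized counts averaged over the 4 crypt libraries. Hnrnpk, a poly(C) binding protein, followed at 4905. The highest of the other families by the same measure were Srsf3 at 2393, Snrpe, a protein of the Sm ring, at 2133, Rbm39 at 1775, Sf3b2 at 1280 and Prpf8, the core of the catalytic spliceosome, at 711. Levels in Ctrl crypts, without division by length, ran from 56.1 to 22574 normalized counts with a median of 1400.

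In crypts, none of the 95 genes passed the test between Ctrl and cKO. Under the study's threshold (a log2 fold change beyond 1 in either direction with an unadjusted p under 0.01, here from limma on log2(normalized count + 1)), 0 genes were higher and 0 were lower, where the share of all genes called was 0.173% higher and 0.00866% lower. At a Benjamini-Hochberg adjusted p under 0.05 the count was 0, as it was for all genes (0%), and at an unadjusted p under 0.05 it was 0 against 0.632% of all genes. The lowest limma p among them was 0.132 (Hnrnpab), with an adjusted p of 1.0. Standard errors of the log2 fold change ran from 0.23 to 0.73 with a median of 0.29. With these 4 libraries a difference must be well over its SE to pass. That of Hnrnpab, 0.51 with an SE of 0.30, did not pass, so moderate differences may have been missed. The replicates are biological by the study's methods.

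Complete separation of the groups was about as frequent as among all genes, or less so. Both cKO crypts lay above both Ctrl crypts for 4 genes, 4.21% of the 95 against a background of 9.73%. Both lay below for 11 genes, 11.6% against 11.3%. The 4 higher genes were Hnrnpab, Prpf19, Rbm4 and Rbm14, of which Prpf19 had a log2 fold change of 0.064 that turned to -0.0093 under scaling by library size alone. The 11 lower genes were Hnrnpll, Hnrnpr, Hnrnpu, Prpf3, Sf3a1, Sf3b1, Sf3b3, Rbm4b, Rbm15, Rbm34 and Rbm43. Rbm4 and Rbm4b are close paralogs, and reads between them may have been split by the counting. Hnrnpa1 and several Snrp genes have processed pseudogenes with which reads may likewise be shared. When 1 library was left out, 8.42% to 45.3% of these genes were separated as higher, against 21.7% to 41.8% of all genes, and 20% to 54.7% as lower, against 23% to 41.8%.

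Hnrnpab, an RNA binding protein of the hnRNP A/B type (GRCm38, chr11:51600100-51606847, minus strand), was at 3286 and 3595 normalized counts in Ctrl crypts and at 6181 and 3879 in cKO crypts. Its log2 fold change was 0.51 with an SE of 0.30, and most of it came from cKO replicate 1. Prpf3, a U4/U6 protein of the tri-snRNP, was at 803 and 708 in Ctrl and at 514 and 609 in cKO crypts, a log2 fold change of -0.43 with an SE of 0.26. Sf3a1, the largest Sf3a subunit, was at 2892 and 2846 in Ctrl and at 1783 and 2560 in cKO crypts. Its log2 fold change was -0.43 with an SE of 0.27. None of the 3 differences passed the test.

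The Snrp genes showed how far the cKO crypts differed from each other. All 11 Snrp genes were above the Ctrl mean in cKO replicate 1 and all 11 were below it in cKO replicate 2. Of all 11554 genes, 5783 were above it in replicate 1 and 6001 were below it in replicate 2. Other families were also below it in replicate 2, with 9 of 9 Sf3, 16 of 20 Hnrnp, 8 of 10 Srsf, 10 of 13 Prpf and 16 of 32 Rbm genes. Snrpe was at 1271 and 915 normalized counts in Ctrl crypts and at 2638 and 884 in cKO crypts. Snrpg, another protein of the Sm ring, was at 843 and 694 in Ctrl and at 1811 and 641 in cKO crypts. The single cKO library that was high set the family median of 0.33, which came from 0.81 in replicate 1 and -0.23 in replicate 2. The 5 Paneth cell markers were also highest in cKO replicate 1, at 29376 CPM against 16312 to 20082 CPM in the other crypts, and their part in the Snrp values was not tested.

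Prpf genes had the other family median away from 0, at -0.24. It came from -0.42 in cKO replicate 1 and -0.07 in cKO replicate 2. Prpf8 was at 5270 and 6217 normalized counts in Ctrl crypts and at 3237 and 6453 in cKO crypts, so that only replicate 1 was below the Ctrl range. The medians of Srsf (-0.02), Hnrnp (-0.05), Rbm (-0.07) and Sf3 genes (-0.09) were close to the -0.01 of all genes.

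Several abundant SR and hnRNP genes overlapped between the groups, while Hnrnpu, at 15886 and 14289 normalized counts in Ctrl and at 12397 and 13117 in cKO crypts, was among the separated genes. Srsf3 was at 11010 and 7951 normalized counts in Ctrl and at 12113 and 7316 in cKO crypts. Srsf1, a founding SR protein, was at 8105 and 8124 in Ctrl and at 8501 and 7390 in cKO crypts. Hnrnpk was at 14662 and 14149 in Ctrl and at 16609 and 12850 in cKO crypts. In Srsf3, Srsf1 and Hnrnpk the cKO libraries lay on both sides of the Ctrl values. Rbm47, an RNA binding cofactor of APOBEC1 editing in the intestine, was at 4274 and 4645 in Ctrl and at 4076 and 4375 in cKO crypts, which overlapped.

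**Figure D2:**
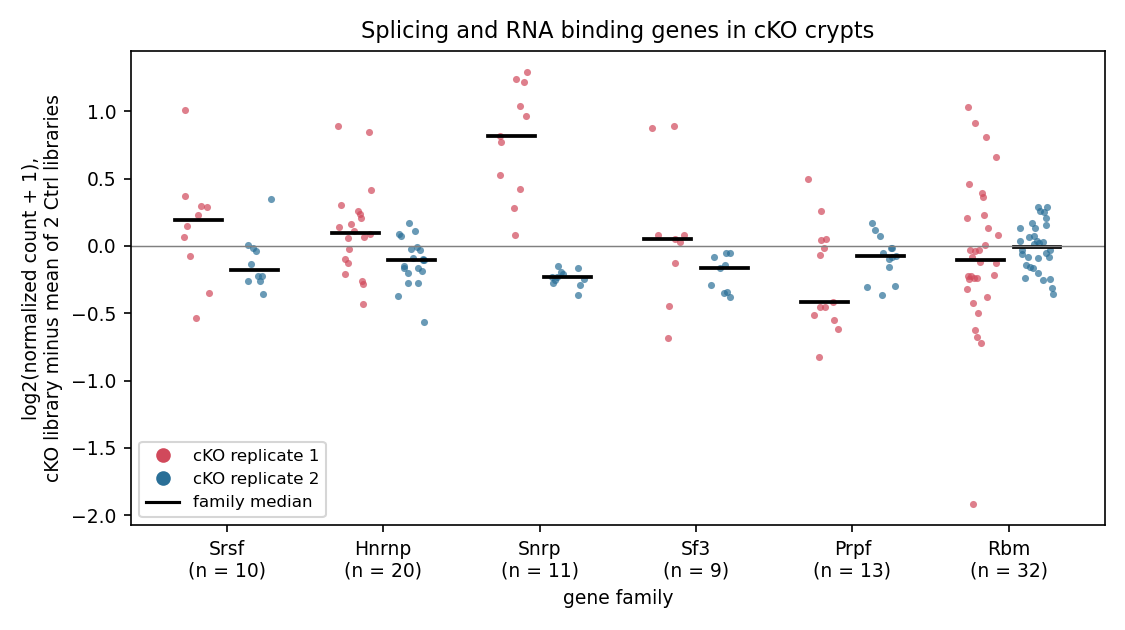
Each point is 1 gene in 1 cKO crypt library, with its log2 distance from the Ctrl crypt mean on the vertical axis and the family on the horizontal axis, and black lines give the family medians. The Snrp medians lie at 0.81 in replicate 1 and -0.23 in replicate 2.

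Leaving out cKO replicate 2 gave calls that the full set did not. With 2 Ctrl libraries and cKO replicate 1, whose spread was assumed to be that of the Ctrl group, limma called 6 genes higher (background 5.13%) and 1 lower (2.49%), and 21 passed an adjusted p under 0.05 (17.2% of all genes). The 6 were Snrpb, Snrpd2, Snrpe, Snrpg, Srsf9 and Rbm8a, and Rbm41 was lower. Without cKO replicate 1, 0 genes were called and 1 was under an unadjusted p of 0.05 (1.05%, against 2.61% of all genes), and the Snrp median was -0.23. These calls rested on cKO replicate 1.

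In villi, these genes were more often above than below the Ctrl library, in a way that separated the families. Both cKO libraries lay above the Ctrl library for 59 of the 95 genes (62.1%, background 43.7%) and below it for 29 (30.5%, background 44.2%). A log2 difference over 1 in both cKO libraries was found for 15 genes (15.8%, background 10.6%), and one under -1 in both for 4 genes (4.21%, background 6.4%). With 1 Ctrl library these are descriptions, and a deviation of that library would move every gene. The cKO villi were close to each other, with a median difference of 0.13 on the log2 scale over the 95 genes.

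SR, hnRNP, Prpf and Rbm genes were higher at the median in cKO villi, and Snrp and Sf3 genes were lower. The family medians were 0.55 for Hnrnp, 0.46 for Rbm, 0.40 for Prpf, 0.39 for Srsf, -0.44 for Snrp and -0.52 for Sf3 genes, beside -0.01 for all genes. Of the 20 Hnrnp genes 17 were above Ctrl in both cKO libraries, as were 8 of 10 Srsf, 10 of 13 Prpf and 20 of 32 Rbm genes. Of the 11 Snrp genes 9 were below Ctrl in both, as were 6 of 9 Sf3 genes. In summed CPM the Sf3 family went from 479 in Ctrl to 619 and 564 in cKO villi. CPM scales by library size alone, under which the median of all genes rose as well, so this sum is not comparable with the medians above. Sf3b1 alone went from 77 to 211 and 187 CPM. Scaling by library size alone moved the median of all genes to 0.42, and the Snrp and Sf3 medians then came to -0.01 and -0.09. Relative to the median of all genes they were -0.43 and -0.51 on that scale, and the other 4 families were 0.41 to 0.56 above it.

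**Figure D3:**
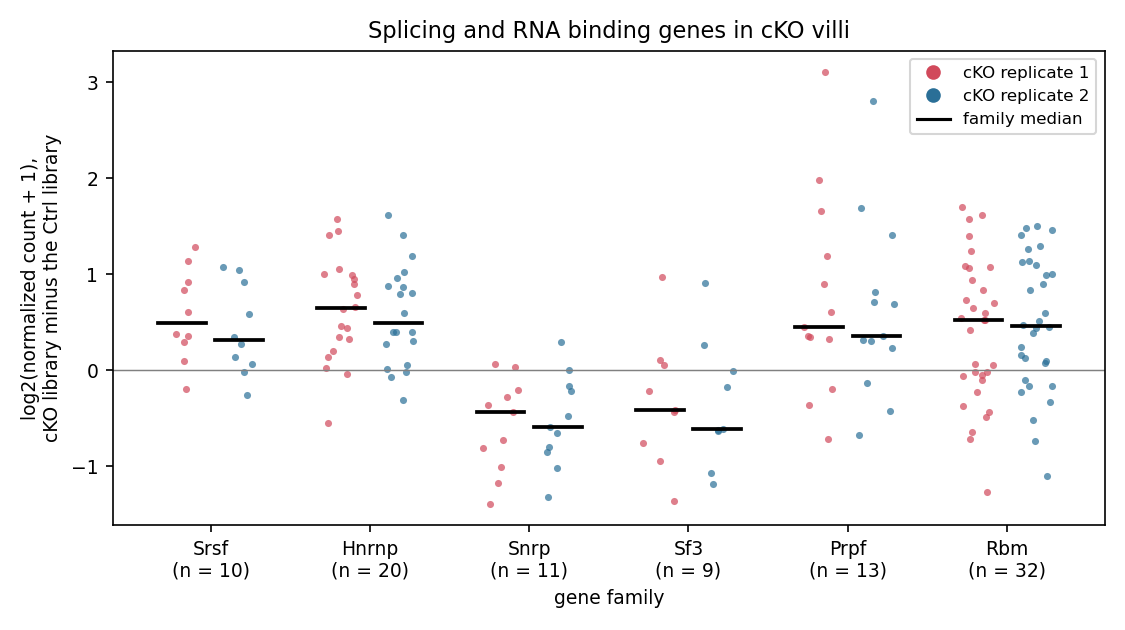
Each point is 1 gene in 1 cKO villus library, with the log2 difference from the single Ctrl villus library on the vertical axis and the family on the horizontal axis, and black lines give the family medians. The medians of Snrp and Sf3 genes lie below 0 in both libraries and those of the other 4 families above it.

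Prpf39, a U1 snRNP-associated factor (GRCm38, chr12:65036333-65063386, plus strand), had the largest difference of the 95 genes. It was at 29.0 normalized counts in the Ctrl villus library, which rest on 25 reads, and at 256 and 208 in cKO villi, a log2 difference of 2.95. In crypts it was at 802 and 508 in Ctrl and at 448 and 596 in cKO libraries, so the cKO villi stayed below every crypt value in CPM as well, at 21.3 and 16.0 against 21.9 to 43.8 CPM. Prpf38b, a factor of spliceosome activation, was at 255 in Ctrl and at 1010 and 825 in cKO villi, a log2 difference of 1.84. Prpf4b, a kinase that phosphorylates tri-snRNP proteins, was at 275 in Ctrl and at 867 and 729 in cKO villi.

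Among the Rbm genes, Rbm26 was at 103 normalized counts in the Ctrl villus library and at 337 and 285 in cKO villi, a log2 difference of 1.58. Rbm39, a U2AF-related splicing factor, was at 722 in Ctrl and at 2154 and 2043 in cKO villi (1.54). Rbm25, a splicing regulator bound to U1, was at 257 in Ctrl and at 793 and 686 (1.52). Rbm48 also passed a difference of 1 in both libraries, but its Ctrl value rests on 9 reads. In all, 7 of the 95 genes had under 30 reads in the Ctrl villus library.

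Among hnRNP and SR genes, Hnrnph3 was at 66.0 in Ctrl and at 177 and 204 in cKO villi, a log2 difference of 1.51. Hnrnph1, a G-tract binding splicing regulator, was at 503 in Ctrl and at 1499 and 1333 (1.49). Hnrnpdl was at 460 in Ctrl and at 1258 and 1050 (1.32). Srsf11 was at 500 in Ctrl and at 1223 and 1055, and with 1.18 it was the highest of the SR genes. Srsf3, by contrast, was at 1557 in Ctrl and at 1662 and 1625 in cKO villi, a difference of 0.08.

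Of the 29 genes below Ctrl in both cKO villi, 9 were Snrp, 8 Rbm, 6 Sf3, 3 Prpf, 2 Hnrnp and 1 Srsf, and 4 were under -1 in both. Snrpd2, a protein of the Sm ring (GRCm38, chr7:19149722-19153542, plus strand), was at 1464 in the Ctrl villus library and at 558 and 587 in cKO villi, a log2 difference of -1.35. Sf3b5, a small Sf3b subunit, was at 1025 in Ctrl and at 398 and 451 (-1.27). Snrpc, a U1 protein, was at 1080 in Ctrl and at 478 and 532 (-1.10). Rbm42 was at 2381 in Ctrl and at 986 and 1109 (-1.19). Sf3b1, the largest Sf3b subunit, went the other way, at 1294 in Ctrl and at 2535 and 2430 in cKO villi, a difference of 0.94, and Sf3a3 was at 271 in Ctrl and at 281 and 326 (0.16). Under scaling by library size alone 0 of the 95 genes were under -1 in both libraries (1.29% of all genes) and 32 were over 1 (33.7%, against 20.7% of all genes).

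Marker genes of other cells moved between the villus libraries too. Crypt stem cell markers, 7 of 7 listed, were at 163 CPM in Ctrl and at 391 and 284 CPM in cKO villi, against the crypt sums given above, and the 9 markers of cycling cells summed to 197 CPM in Ctrl and to 310 and 298 CPM. In normalized counts 3 of these 9 were above Ctrl in both cKO villi and 5 below, with a median log2 difference of -0.17. Immune cell markers, 7 of 7 listed, were at 1186 CPM in Ctrl and at 431 and 400 CPM in cKO villi. Mesenchymal markers, 7 of 8 listed, were at 111 CPM in Ctrl and at 177 and 141 CPM. In normalized counts the median log2 difference was 0.62 for stem cell, -1.90 for immune and 0.12 for mesenchymal markers, beside -0.01 for all genes. None of these markers was at 0 in every villus library, and the part of these cells in the values of the splicing genes was not tested.

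Transcript length moved with the differences in both tissues. Across the 95 genes, Spearman's rho of the longest annotated transcript (GENCODE M21) with the log2 difference was -0.657 in cKO crypt replicate 1 and 0.313 in replicate 2. Over all genes of the table it was -0.657 and 0.311. In villi it was 0.467 and 0.415 across the 95 genes and 0.543 and 0.507 over all genes. The points share libraries and are no replicates. With the median length of a gene's transcripts in place of the longest, the villus values over the 95 genes were 0.087 and 0.072. Over all genes they were 0.324 and 0.309 by that measure.

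The families differ in length. The median longest transcript was 1711 bases for Snrp, 3222 for Sf3, 3294 for Srsf, 3525 for Rbm, 3715 for Hnrnp and 4065 for Prpf genes. Of the 31 shortest genes (669 to 2792 bases) 9 were Snrp and none was Prpf. Those 31 genes had a median of 0.39 in cKO crypt replicate 1 and of -0.05 and -0.02 in cKO villi, while the 31 longest (4065 to 21452 bases) had -0.24 in that crypt library and 0.84 and 0.79 in cKO villi. Snrpc is a short gene by the median of its transcripts (984 bases) but not by its longest (6107 bases).

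**Figure D4:**
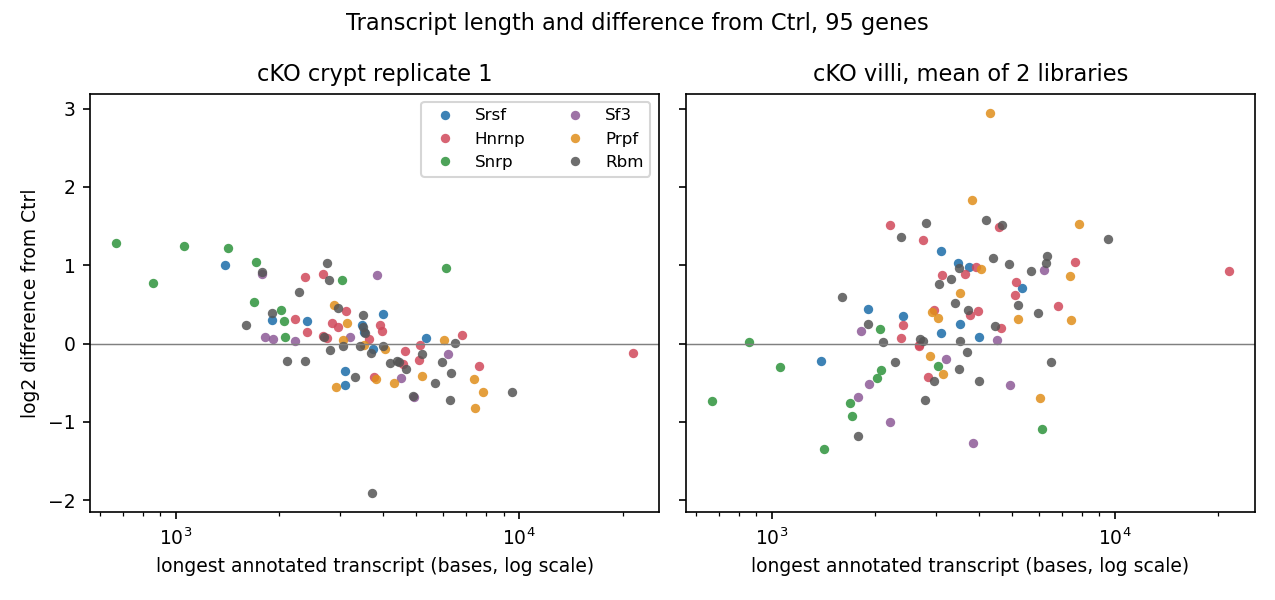
Each point is 1 of the 95 genes, with the longest annotated transcript in bases on a log horizontal axis, the log2 difference from Ctrl on the vertical axis and the family by colour. Shorter genes lie higher in cKO crypt replicate 1 (rho -0.657), and longer genes lie higher in cKO villi (rho 0.467 and 0.415 in the 2 libraries).

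After a smooth trend on the longest transcript was subtracted from each library, some family medians came closer to 0 and others did not. In crypts the Snrp median went from 0.33 to 0.02 and the Prpf median from -0.24 to -0.07, while the Sf3 median went from -0.09 to -0.16. In villi the Snrp median went from -0.44 to -0.08 and the Sf3 median from -0.52 to -0.22, the Hnrnp median from 0.55 to 0.30 and the Rbm median from 0.46 to 0.37. The Srsf and Prpf medians were 0.47 and 0.40 after the correction. With the median transcript length in its place the Snrp median was 0.25 in crypts and -0.40 in villi, and in villi the Hnrnp, Prpf and Sf3 medians were 0.64, 0.61 and -0.29, so the result for these families depended on the length measure. After correction on the longest transcript, 60 of the 95 genes were above Ctrl in both cKO villi (63.2%, background 41%) and 28 were below (29.5%, background 43.7%), and 11 were over 1 in both (11.6%, background 6.8%) and 3 were under -1 (3.16%, background 3.23%).

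Single genes moved by different amounts under the correction. Prpf39 kept a villus difference of 2.73, Hnrnph3 went from 1.51 to 1.81 and Rbm39 from 1.54 to 1.68. Prpf4b, with a transcript of 7844 bases, went from 1.53 to 0.74, and Hnrnpr, with 21452 bases, from 0.93 to -0.60. Snrpd2 went from -1.35 to -0.79.

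**Figure D5:**
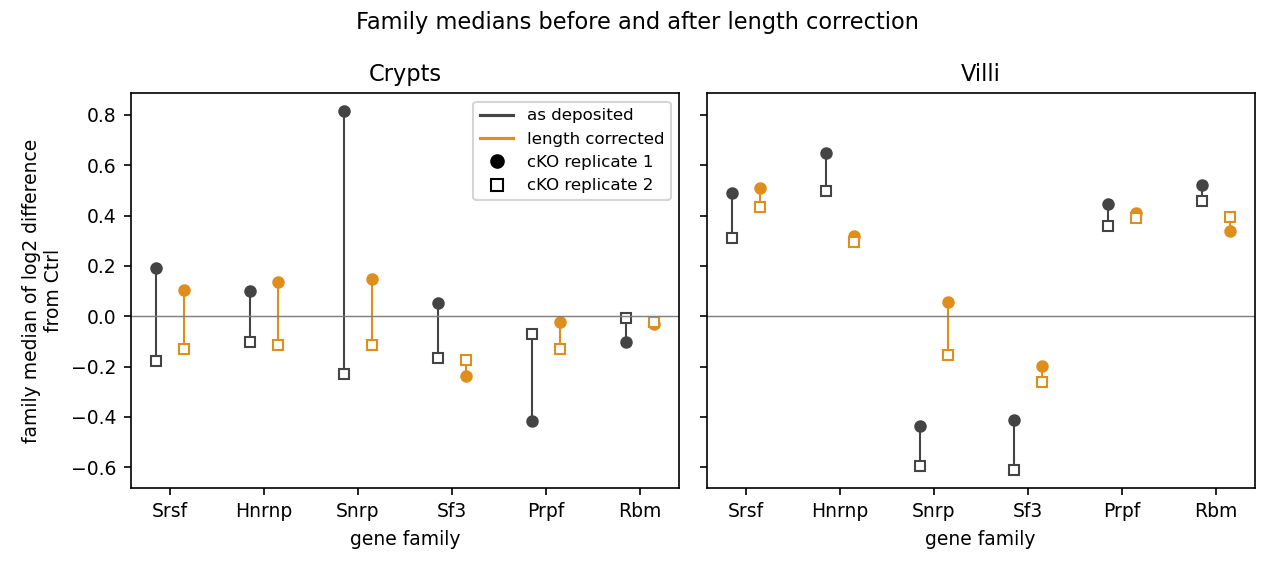
Median log2 difference from Ctrl of each family on the vertical axis, by family on the horizontal axis, as deposited (dark) and after length correction (orange), with circles for cKO replicate 1 and open squares for cKO replicate 2. The 2 crypt values of Snrp genes come from 0.81 and -0.23 to 0.15 and -0.11, and the villus medians of Srsf, Hnrnp, Prpf and Rbm genes stay above 0 in both libraries.

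The genes with higher values in cKO villi were often those with an annotated transcript for nonsense-mediated decay, a grouping chosen after the values were seen. The 43 genes with such a transcript had a median villus difference of 0.86, and the 52 without had 0.12. Over all genes of the table the values were 0.08 and -0.04. Of the 15 genes over 1 in both cKO villi 12 had such a transcript (80%), against 455 of 1348 over all genes (33.8%). The starting shares differ too, since 43 of the 95 genes had one, against 3482 of 12692 genes matched to the annotation. The grouping follows family, with such a transcript in 9 of 10 Srsf and 10 of 20 Hnrnp genes but in 1 of 9 Sf3 and 4 of 11 Snrp genes. The median longest transcript was 3482 bases with and 3466 bases without, and after length correction the medians were 0.42 and 0.17. Over all genes the corrected medians were -0.022 with and -0.026 without. Gene-level values do not tell which isoforms were present.

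Other genes of the splicing pathway were followed from lists that do not overlap the 95 genes by rule. None of the 7 SR kinases, 30 further snRNP proteins, 22 catalytic and exon junction proteins or 45 other regulators was called in crypts. The SR kinases, which phosphorylate SR proteins, were above Ctrl in both cKO villi for 7 of 7 genes. Over all genes 43.7% were above Ctrl in both and 44.2% below. The median of the SR kinases was 1.27, or 0.65 after length correction. After that correction Clk4, Clk2, Clk1 and Srpk2 were at 1.76, 1.65, 1.57 and 0.65, Clk3 at 0.08, Dyrk1a at -0.16 and Srpk1 at -0.19. Clk1 was at 262 in Ctrl and at 1057 and 921 in cKO villi, and Clk4 at 102 in Ctrl and at 387 and 336. In crypts, Clk1 was at 2166 and 1285 in Ctrl and at 1710 and 1610 in cKO libraries, which overlapped.

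The 30 snRNP and tri-snRNP proteins had a villus median of -0.18, with 7 above Ctrl in both cKO libraries and 20 below. The background over all genes was 43.7% above and 44.2% below. After length correction the median of these 30 was -0.17. The 22 catalytic and exon junction proteins had -0.08, with 10 above and 11 below, and 0.05 after length correction. The 45 other regulators had 0.48, with 33 above and 11 below, and 0.12 after length correction. Srrm2, a scaffold of nuclear speckles, was at 588 in Ctrl and at 2381 and 2176 in cKO villi, and Pnn at 193 in Ctrl and at 778 and 608. Ybx1, an abundant mRNA packaging protein, was at 15103 in Ctrl and at 7142 and 7689 in cKO villi.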

How the data were processed

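Per the study's methods, the authors aligned reads to mm10 with STAR and compared groups with DESeq2. Each deposited value is a signal, a count per gene scaled by 1 size factor per library, and the tables also hold the authors' fold changes and p-values, which were not used. The counting program, strand setting and annotation are not given in the sources used here, so overlapping and near-identical genes are uncertain. Crypt and villus tables were normalized separately. Reads were recovered from the smallest gap between values, of which 100% of values were whole multiples within 0.001 read, and they served for depth, CPM and a read filter. For the crypt table an independent check of its low values did not find this step, so no count test was used there.

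Values were tested with limma 3.58.1 in R 4.3.3 (trend, log2(value + 1), mean of at least 1, 4 crypt libraries), adjusted over all genes, and the fit was tested on simulated data. A fold change on this scale understates changes of low genes. Length correction subtracted per library a lowess curve (span 0.3) on log2 transcript length from GENCODE M21. Named genes were those of known role, the highest and lowest separated genes of each family per tissue and the highest level per kilobase, and others were named after their values were seen. The members and lists were chosen with earlier results of these data known. Alternatives covered the replicate block, scaling, filters, pseudocount (0.1), length measure and each library left out.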

Additional observations from a re-analysis of the deposited data

Results flagged for a closer look

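For 6 named genes and 1 family, the cKO libraries were all above Ctrl in 1 tissue and all below it in the other. The difference between tissues was not tested, and the villi have 1 Ctrl library. Hnrnpu had a log2 fold change of -0.24 in crypts and a log2 difference of 1.04 in villi. Prpf19 had 0.064 in crypts and -0.69 in villi. Prpf3 had -0.43 in crypts and 0.40 in villi. Rbm14 had 0.31 in crypts and -0.32 in villi. Rbm4b had -0.43 in crypts and 0.92 in villi. Sf3b1 had -0.090 in crypts and 0.94 in villi. The Prpf family median was -0.24 in crypts and 0.40 in villi. Over all genes, rho of the longest transcript with the mean cKO difference was -0.523 in crypts and 0.54 in villi. After length correction Sf3b1 had 0.093 in crypts and 0.36 in villi, no longer opposite. Hnrnpu then had -0.0057 and 0.27, and the Prpf median -0.065 and 0.40. Prpf19, Prpf3, Rbm14 and Rbm4b kept opposite signs. The part of length was not tested. None of the crypt values passed the limma test. Of the 15 genes of these families separated in crypts, 11 lay on the opposite side in villi and 2 on the same side, and 1453 of the 2343 genes separated in crypts among all genes listed for both tissues did so.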

How the results depend on the processing

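No member of the 6 families was called in crypts with all 4 libraries under any setting: the replicate block, scaling by library size alone, no filter or one of 10 reads per library, a pseudocount of 0.1, or length correction on the longest or the median transcript. The edgeR and DESeq2 alternatives planned for the crypts are not reported, because the crypt values did not pass an independent check as recovered reads. The replicate numbers mark no shared animal, litter or day in the labels, and the deviations of same-numbered crypt libraries correlated at 0.247. With the replicate block 0 members were called, 0 passed an adjusted p under 0.05 and 0 an unadjusted p under 0.05, while the calls over all genes at an adjusted p under 0.05 went from 0 to 34. Length correction with the replicate block gave 2 members at an unadjusted p under 0.05 (2.11%, against 2.7% of all genes).

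Leaving out each crypt library gave 0 to 7 members called, 0 to 21 at an adjusted p under 0.05 and 0 to 31 at an unadjusted p under 0.05, and the upper values are those without cKO replicate 2, where 32.6% of members and 34.6% of all genes were under an unadjusted p of 0.05. The crypt medians then ranged from -0.21 to 0.19 (Srsf), -0.10 to 0.10 (Hnrnp), -0.23 to 0.81 (Snrp), -0.16 to 0.052 (Sf3), -0.42 to -0.072 (Prpf), -0.10 to 0.016 (Rbm). In villi, leaving out each cKO library gave 0.31 to 0.49 (Srsf), 0.50 to 0.65 (Hnrnp), -0.59 to -0.44 (Snrp), -0.61 to -0.41 (Sf3), 0.36 to 0.45 (Prpf), 0.46 to 0.52 (Rbm). The numbers of members with crypt groups apart ranged from 8 to 43 higher and from 19 to 52 lower (all genes, 21.7% to 41.8% and 23% to 41.8%), an alternative chosen after seeing the data. With fewer libraries complete separation is easier by construction.

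Library size alone gave a crypt Rbm median of -0.15 and villus medians of 0.83 (Srsf), 0.98 (Hnrnp), -0.0074 (Snrp), -0.090 (Sf3), 0.83 (Prpf) and 0.89 (Rbm), with 32 members over 1 (33.7%, all genes 20.7%) and 0 under -1 (all genes 1.29%) in villi. It moves every gene alike by construction. Correction on the longest transcript gave a crypt Rbm median of 0.050 and villus medians of 0.30 (Hnrnp), -0.085 (Snrp), -0.22 (Sf3) and 0.37 (Rbm). Correction on the median transcript gave villus medians of -0.40 (Snrp), 0.64 (Hnrnp), -0.29 (Sf3), 0.61 (Prpf) and 0.31 (Rbm), and a crypt Snrp median of 0.25. A minimum of 10 reads gave a villus Rbm median of 0.40. With the median transcript, rho in villi was 0.087 and 0.072 over the members and 0.324 and 0.309 over all genes. The cause was not tested.

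Of 432 alternative crypt fold changes of the 36 named genes, 56 changed sign, all of genes that did not pass the test, and 5 passed the study's threshold, each without cKO replicate 2. Under library size alone the changed signs were Srsf3 -0.064, Hnrnpk -0.053, Snrpb2 -0.044, Srsf7 -0.041, Srsf2 -0.035, Prpf19 -0.0093. Under correction on the longest transcript, with or without the block, the changed signs were Srsf2 -0.11, Snrpb2 -0.10, Srsf7 -0.054, Hnrnpk -0.0087, Rbm47 0.053, Sf3b1 0.093, Srsf1 0.11. Under correction on the median transcript the changed signs were Snrpb2 -0.048, Hnrnpk -0.046, Srsf3 -0.012, Srsf2 -0.0044, Prpf19 -0.0041. Leaving out libraries gave ranges that crossed 0 for Hnrnpa1 -0.011 to 0.41, Hnrnpa2b1 -0.28 to 0.056, Hnrnpc -0.028 to 0.26, Hnrnph3 -0.10 to 0.50, Hnrnpk -0.16 to 0.21, Prpf39 -0.63 to 0.025, Prpf8 -0.82 to 0.17, Rbm26 -0.46 to 0.13, Rbm39 -0.22 to 0.078, Rbm42 -0.20 to 0.91, Sf3b2 -0.14 to 0.085, Sf3b5 -0.35 to 0.87, Snrpb -0.16 to 1.04, Snrpb2 -0.23 to 0.29, Snrpd2 -0.23 to 1.22, Snrpd3 -0.15 to 0.81, Snrpe -0.29 to 1.29, Snrpg -0.25 to 1.24, Srsf1 -0.13 to 0.067, Srsf11 -0.37 to 0.0066, Srsf2 -0.22 to 0.30, Srsf3 -0.35 to 0.37, Srsf5 -0.27 to 0.24, Srsf7 -0.23 to 0.29. Of 288 villus values of these genes 15 changed sign and 92 moved by over 1 SD between the cKO libraries. Depth limits 7 members with under 30 reads in the Ctrl villus library.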
